A study of Mus musculus with 6 samples.

Results

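The genes described here encode the subunits of cohesin, 4 of them made for meiosis (Smc1b, Rec8, Rad21l and Stag3) and 5 shared with mitotic cells (Smc1a, Smc3, Rad21, Stag1 and Stag2). They were taken by symbol from a list of 9 names, and 9 of 9 were found among the 50763 gene symbols of the count table. RNA was sequenced from mouse testes collected on postnatal day 14. Of the 6 libraries, 3 came from wild-type mice (WT) and 3 from mice of the genotype labelled sKO, a conditional knockout of Rif1 made in germ cells before meiosis. The sources used here do not give the Cre driver, the deleted exons or the strain. RNA was captured by its poly(A) tail. The labels do not tie the 3 samples of a genotype to different animals, so a p-value reflects only how far these samples spread, and that spread may be technical.

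Cohesin is a ring of an SMC1 protein, SMC3 and a kleisin, to which a STAG protein binds. It holds sister chromatids together from replication until separase cuts the kleisin, and it forms the base of chromatin loops. Germ cells entering meiosis add SMC1B as a counterpart of SMC1A, the kleisins REC8 and RAD21L of RAD21, and STAG3 of STAG1 and STAG2. SMC3 serves both forms. Rings with meiotic subunits build the chromosome axis on which homologs pair and recombine. On day 14 the first wave of germ cells has reached the middle of meiotic prophase.

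Library totals ranged from 15941672 to 18296594 counts, and the 9 subunits together took 22798 to 29953 counts of a library. The lowest count of any member was 379 (Rad21l), for which counting error alone is 5.14%. Levels are given as CPM, counts relative to the library total after scaling by the trimmed mean of M-values (TMM). Tests are edgeR quasi-likelihood tests with Benjamini-Hochberg adjustment over all 18860 genes tested, in which a gene is called at an adjusted p under 0.05. Rif1, the targeted gene, stood between 83.7 and 129 CPM in WT and between 42.0 and 49.2 CPM in sKO, with a log2 fold change of -1.17 (SE 0.15, edgeR adjusted p = 0.0145). The Rif1 call was lost without WT library 2 (edgeR adjusted p = 0.137), sKO library 1 (0.0618) or sKO library 2 (0.120). Counts of Rif1 in sKO may take in exons outside the deletion and cells that were not deleted, which was not tested. sKO library 1 held 152 CPM of transcripts of 10 epididymis genes, against 5.17 to 20.7 CPM in the others, and sKO library 3 lay nearest to WT in meiotic genes. Values with single libraries left out are given beside the members' estimates.

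None of the 9 subunits was called. All 9 passed the filter on low counts, and edgeR, DESeq2 and limma-voom each called 0 of them, beside 1.27% of all genes called lower and 0.0318% called higher by edgeR. At an unadjusted p under 0.05, edgeR had 2 of the 9 lower (Stag3 and Smc1b) and 0 higher, beside 8.54% and 5.06% of all genes. In 1 subunit, Stag3, every sKO library lay below every WT library, and in 1, Rad21, every sKO library lay above, beside 10.7% and 9.58% of all genes. The median log2 fold change of the 9 was 0.06, and that of all genes tested was 0.03. In whole testis, fewer cells of a type and less RNA per cell cannot be told apart.

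**Figure D1:**
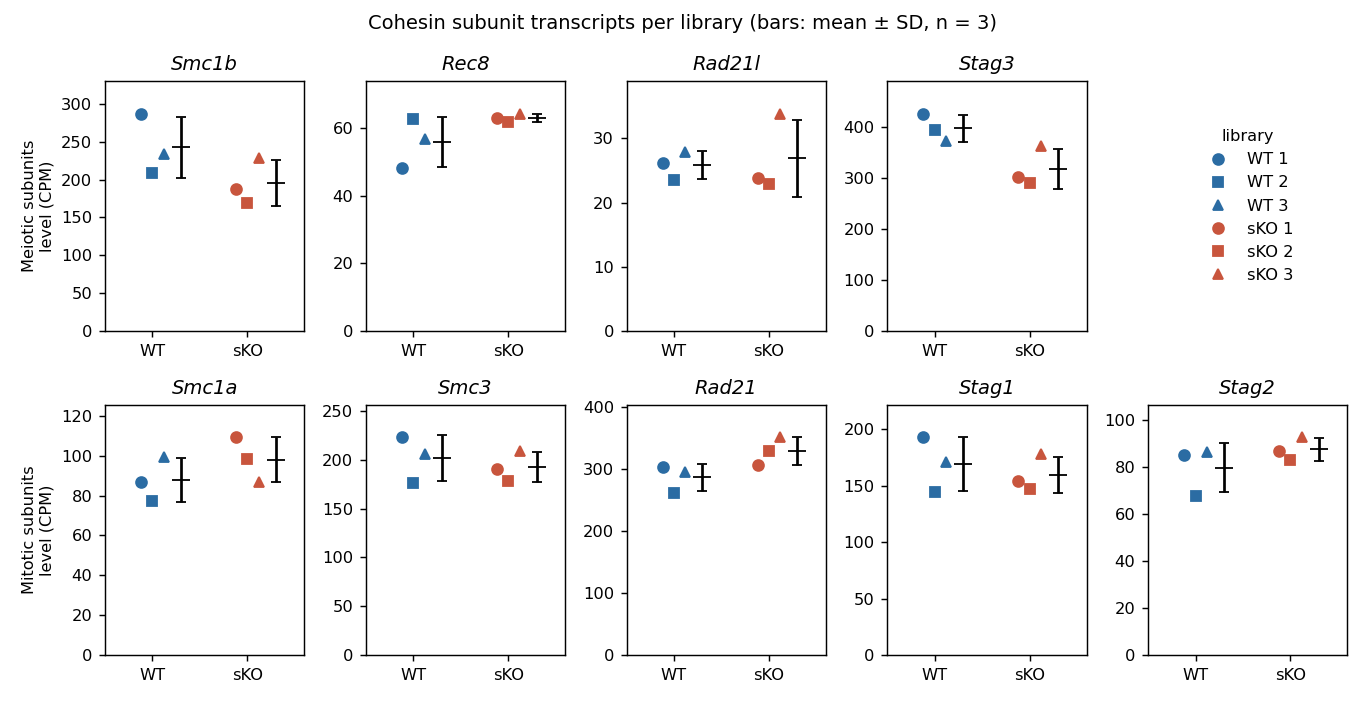
Level in CPM of the 4 meiotic subunits (upper row) and the 5 mitotic subunits (lower row) in each library, with group means and SD (n = 3) to the right of the points. Stag3 is the subunit whose 3 sKO libraries all lie below WT, and Rad21 the one whose 3 sKO libraries all lie above.

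Stag3, the meiosis-specific STAG gene, had a lower estimate with groups apart. WT libraries 1, 2 and 3 held 427, 394 and 373 CPM, and sKO libraries 1, 2 and 3 held 302, 290 and 363 CPM. The groups did not overlap, but sKO library 3 lay close below WT library 3. WT averaged 398 ± 27.3 CPM and sKO averaged 318 ± 39.4 (SD, n = 3 each). Its log2 fold change was -0.32 (SE 0.11, 95% interval -0.56 to -0.084, edgeR adjusted p = 0.201), and permuting the libraries in an exact two-sided test gave p = 0.1, the smallest that 3 against 3 libraries allow. Without sKO library 3 the estimate was -0.46 and Stag3 was called (edgeR adjusted p = 0.0372), in a fit that called 3.23% of all genes lower. Over all 14 alternatives the adjusted p of Stag3 ranged from 0.0372 to 0.694.

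Smc1b, the SMC1 protein that keeps sister chromatids and telomeres joined through meiotic prophase, had nearly the same estimate with wider spread. It stood at 287, 208 and 234 CPM in WT and at 188, 170 and 228 CPM in sKO. sKO library 3 lay above WT library 2, so the groups overlapped. The log2 fold change was -0.32 (SE 0.14, 95% interval -0.62 to -0.0074, edgeR adjusted p = 0.354), with means of 243 ± 40.2 and 195 ± 30.1 CPM (SD, n = 3 each). The estimate lay at -0.18 without WT library 1 and at -0.48 without sKO library 3, and at neither was Smc1b called.

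The meiotic kleisins did not share these lower estimates. Rec8, the kleisin that holds sister centromeres together through the first meiotic division, stood at 48.0, 62.6 and 56.8 CPM in WT and at 62.9, 61.8 and 64.2 CPM in sKO. WT library 1, the highest of the 6 for Smc1b and Stag3, was the lowest for Rec8. The log2 fold change of Rec8 was 0.17 (SE 0.11, 95% interval -0.073 to 0.42, edgeR adjusted p = 0.538), an interval that leaves out a fall of the size estimated for Stag3. The estimate was 0.077 without WT library 1 and 0.27 without WT library 2.

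Rad21l, the kleisin found on chromosome axes early in prophase, stood at 26.2, 23.5 and 27.8 CPM in WT and at 23.8, 22.9 and 33.8 CPM in sKO. sKO library 3 was the highest and sKO library 2 the lowest of the 6. The log2 fold change was 0.06 (SE 0.16, 95% interval -0.29 to 0.41, edgeR adjusted p = 0.910). Its sign turned without sKO library 3 (-0.18) and without WT library 2 (-0.0045), and it was 0.16 without sKO library 2.

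Rad21, the kleisin cleaved at mitotic anaphase, was the mitotic subunit whose groups did not overlap. It stood at 304, 262 and 295 CPM in WT and at 307, 329 and 352 CPM in sKO. All 3 sKO libraries were above WT, with sKO library 1 just above WT library 1. The log2 fold change was 0.20 (SE 0.096, 95% interval -0.012 to 0.41, edgeR adjusted p = 0.401), and the exact two-sided permutation test again gave the smallest possible p = 0.1. Without sKO library 3 the estimate of Rad21 was 0.11.

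Smc1a, the SMC1 protein of mitotic rings, is X-linked. It stood at 87.0, 77.1 and 99.3 CPM in WT and at 109, 98.2 and 86.7 CPM in sKO, with overlapping groups and a log2 fold change of 0.16 (95% interval -0.11 to 0.42, edgeR adjusted p = 0.603). The Smc1a estimate ranged from 0.055 without sKO library 1 to 0.26 without WT library 3, and was 0.074 without WT library 2. Stag2, also X-linked, stood at 85.0, 67.7 and 86.0 CPM in WT and at 86.7, 82.8 and 92.4 CPM in sKO. WT library 2 was the low one, and the log2 fold change of Stag2 was 0.13 (95% interval -0.11 to 0.38, edgeR adjusted p = 0.640). It was 0.031 without WT library 2 and 0.057 without sKO library 3.

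Smc3, the subunit common to meiotic and mitotic rings, stood at 223, 176 and 206 CPM in WT and at 190, 178 and 209 CPM in sKO. Its log2 fold change was -0.067 (95% interval -0.31 to 0.17, edgeR adjusted p = 0.835). Stag1, the STAG protein most tied to telomere cohesion, stood at 193, 144 and 171 CPM in WT and at 154, 147 and 178 CPM in sKO, with a log2 fold change of -0.084 (95% interval -0.35 to 0.18, edgeR adjusted p = 0.809). Both were highest in WT library 1 and lowest in WT library 2, so their WT libraries bracketed all 3 sKO libraries. Both estimates turned positive without WT library 1, to 0.012 for Smc3 and 0.021 for Stag1, and were -0.17 and -0.20 without sKO library 3.

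**Figure D2:**
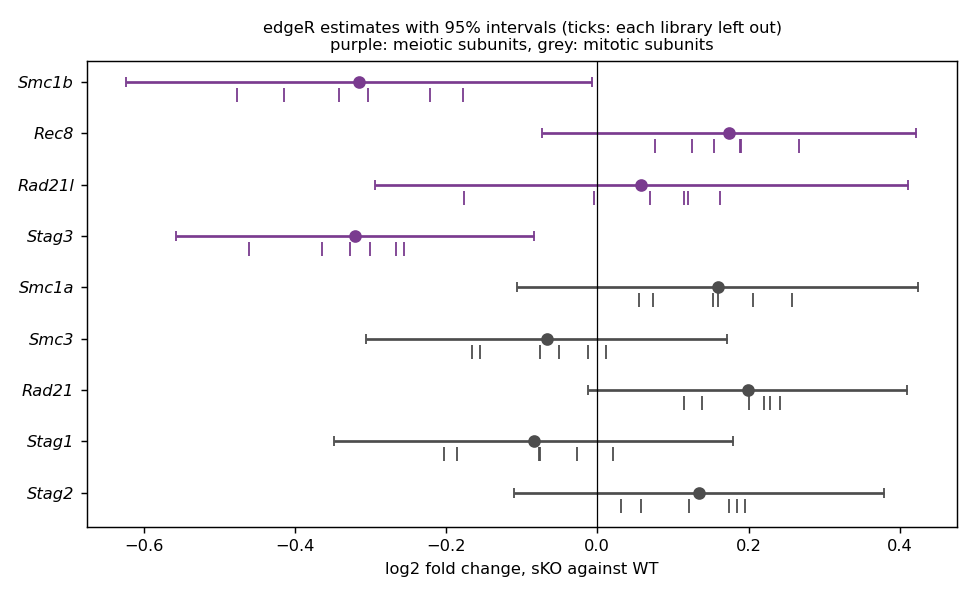
Log2 fold change of each subunit, sKO against WT (edgeR estimate as a point, 95% interval as a line), with the estimates from leaving out each library as ticks under it. Stag3 and Smc1b have intervals below 0 before adjustment over all genes, and the other 7 intervals include 0.

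Ratios of counts within a library need no scaling between libraries, and they set each meiotic subunit beside its mitotic counterpart. In this family 5 pairs were compared by exact two-sided permutation tests over the 6 libraries, with Benjamini-Hochberg adjustment over the 5. Stag3 had 5.02, 5.82 and 4.33 counts per Stag2 count in WT and 3.48, 3.50 and 3.93 in sKO. The groups did not overlap, and the difference was -0.47 on the log2 scale (exact p = 0.1, adjusted 0.25). Against Stag1 the ratio of Stag3 was 2.21, 2.73 and 2.18 in WT and 1.96, 1.97 and 2.04 in sKO, a difference of -0.25 (exact p = 0.1, adjusted 0.25) that was -0.14 without WT library 2. The exact test cannot go below p = 0.1 with 3 against 3 libraries, so no pair could pass the threshold.

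Smc1b had 3.30, 2.70 and 2.35 counts per Smc1a count in WT and 1.72, 1.73 and 2.63 in sKO. sKO library 3 lay inside the WT range, and the difference was -0.47 on the log2 scale (exact permutation p = 0.2, adjusted 0.333). For the kleisins the groups overlapped. Rec8 per Rad21 was 0.158 to 0.239 in WT and 0.183 to 0.205 in sKO, a difference of -0.017 (exact p = 0.9, adjusted 0.9) that ran from -0.16 without WT library 1 to 0.13 without WT library 2. Rad21l per Rad21 was 0.0863 to 0.0943 in WT and 0.0698 to 0.0963 in sKO, a difference of -0.16 (exact p = 0.4, adjusted 0.5) that was -0.058 without sKO library 2 and -0.29 without sKO library 3.

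**Figure D3:**
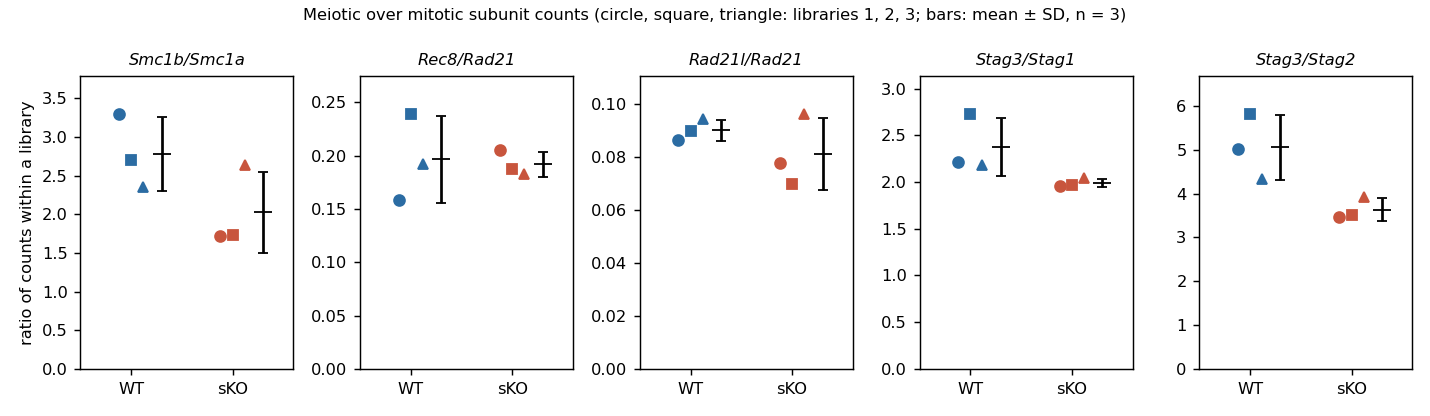
Counts of a meiotic subunit divided by counts of its mitotic counterpart in each library, with group means and SD (n = 3) of the ratios. In both Stag3 ratios the 3 sKO libraries lie below the 3 WT libraries, and in the other 3 pairs the groups overlap.

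Counts of the meiotic subunits were also set beside each other. A further 5 ratios among them were chosen after their values were seen and are given without a test. No share over all pairs of genes was computed, so groups without overlap are a description only. Stag3 per Rec8 was 8.89, 6.29 and 6.56 in WT and 4.79, 4.70 and 5.66 in sKO, without overlap, a difference of -0.51 on the log2 scale. Smc1b per Rad21l was 8.39 to 10.9 in WT and 6.75 to 7.86 in sKO, again without overlap. Stag3 per Rad21l was 13.4 to 16.7 in WT and 10.7 to 12.6 in sKO. Smc1b per Rec8 had overlapping groups, at 3.32 to 5.97 and 2.75 to 3.56. Smc1b per Stag3, in contrast, averaged 0.609 ± 0.0736 in WT and 0.612 ± 0.0235 in sKO (SD, n = 3 each).

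The meiotic subunits were set beside other genes that act early in meiotic prophase. Of 24 such genes, all tested, edgeR called 1 lower (Spo11, which makes the meiotic double-strand breaks) and 0 higher. Of all genes edgeR called 1.27% lower. DESeq2 called 5 of the 24 lower, beside 711 of the 35082 genes to which it gave a p-value, and limma-voom called 0. Those 35082 take in low-count genes left out of the 18860 that edgeR tested. edgeR had 9 lower and 0 higher before adjustment (p under 0.05), beside 8.54% and 5.06% of all genes. Spo11 had a log2 fold change of -0.99 (edgeR adjusted p = 0.0253), and its call was lost without WT library 2 (0.137), sKO library 1 (0.0901) or sKO library 2 (0.170). The list's median log2 fold change was -0.42. Relative to the WT mean, their median log2 level was 0.20, -0.15 and -0.12 in the WT libraries, in order, and -0.47, -0.49 and -0.080 in the sKO libraries. sKO library 3 thus sat with WT libraries 2 and 3, as it did for Smc1b.

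Smc1b and Stag3 tracked that list from library to library. Measured against the list's median log2 level in each library, Smc1b differed between the groups by 0.011 and Stag3 by -0.00098. No library departed by more than 0.11 for Smc1b or 0.14 for Stag3. Set beside the median of the list's log2 fold changes, -0.42, the estimates of both, -0.32, were smaller falls. Against the same list Rec8 stood at -0.41, 0.33 and 0.15 in WT and at 0.65, 0.65 and 0.29 in sKO. Rad21l stood at -0.18, 0.019 and 0.23 in WT and at 0.36, 0.32 and 0.47 in sKO, without overlap. No share over all genes was computed for this measure, so that is a description only. The measure subtracts a list median that was lower in sKO libraries 1 and 2 than in WT. In CPM the groups of Rad21l overlapped. Within the list itself 21 of the 24 genes had lower estimates and 3 had higher ones. Stra8, which starts the meiotic programme, had a log2 fold change of 0.018 (edgeR adjusted p = 0.975). Its partner Meiosin had one of 0.14 (edgeR adjusted p = 0.583). Meioc and Ythdc2, also on the list, had log2 fold changes of -0.60 (edgeR adjusted p = 0.258) and -0.45 (edgeR adjusted p = 0.118). The mitotic members were not measured against the list. Of those, Smc3 and Stag1 were also highest in WT library 1, and lower in sKO libraries 1 and 2 than in sKO library 3. Smc1a was highest in sKO library 1, and Rad21 and Stag2 in sKO library 3. Why Smc1b and Stag3 track the list was not tested.

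**Figure D4:**
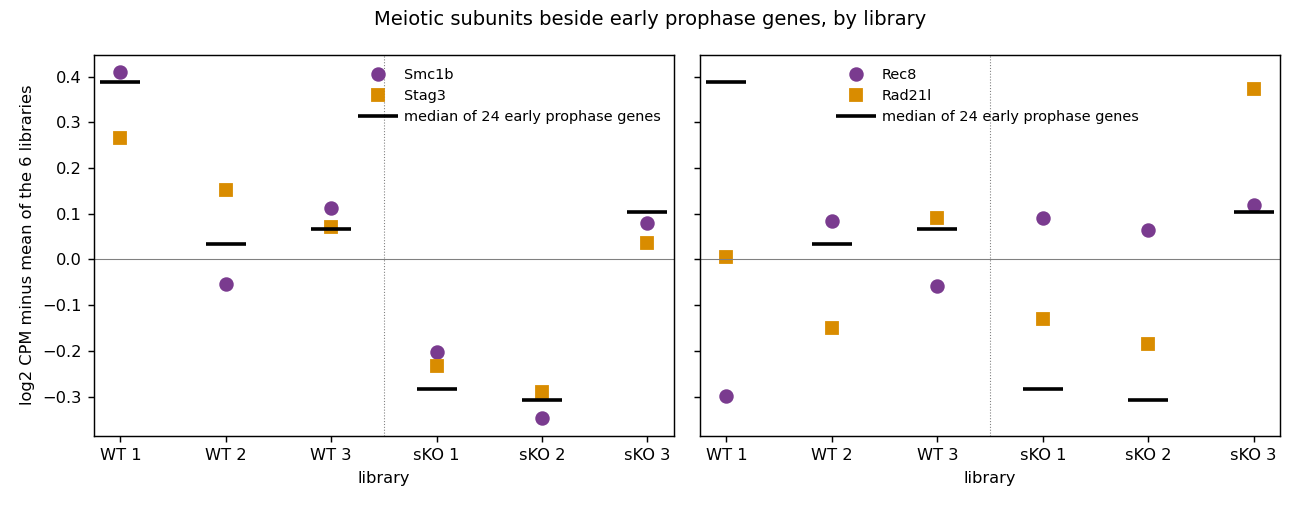
Log2 CPM of Smc1b and Stag3 (left) and of Rec8 and Rad21l (right) in each library, minus the gene's mean over the 6 libraries, with the median of the 24 early prophase genes, shifted to mean 0, as black bars. Smc1b and Stag3 follow the bars in WT library 1 (high) and sKO libraries 1 and 2 (low), where Rec8 goes the other way.

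Genes of other cell types were read in the same libraries. Of 13 tested pachytene spermatocyte genes (15 listed), edgeR called 4 lower (Acr, Tekt1, Nme5 and, outside the rule for naming genes, Ybx2), beside 1.27% of all genes. The median log2 fold change was -1.55, with summed levels of 815 to 1665 CPM in WT and 351 to 573 CPM in sKO. DESeq2 called 10 of these genes lower, beside 711 of the 35082 genes, low-count genes among them, to which it gave a p-value. With limma-voom 0 were called (Acr 0.0583, Tekt1 0.0632 and Nme5 0.0931 as adjusted p). None of the edgeR calls held without WT library 2, sKO library 1 or sKO library 2, where edgeR called 0 genes in all; for Acr the adjusted p was then 0.137, 0.0856 and 0.120. Nme5 was also lost without WT library 1 (adjusted p = 0.113). Of 14 spermatogonia genes 0 were called by edgeR, DESeq2 or limma-voom (2 lower and 1 higher before adjustment), with a median of 0.12 and sums of 1032 to 1138 CPM in WT and 1119 to 1168 CPM in sKO. All 14 Sertoli cell genes had higher estimates, with 0 called by any of the 3 tools, 6 higher at an unadjusted p under 0.05, a median of 0.24 and sums of 5844 to 6700 and 7003 to 8447 CPM. The 8 Leydig cell genes had a median of 0.27 with sums of 370.2 to 514 and 539 to 661 CPM. The 11 genes of peritubular myoid cells, vessels and macrophages had a median of 0.29 with sums of 699.6 to 925 and 798 to 1263 CPM. No gene of these last groups was called by any tool, and 2 Leydig genes were higher at an unadjusted p under 0.05. Over all genes 8.54% were lower and 5.06% higher at that unadjusted threshold. Of 10 epididymis genes 5 were tested, with a median of 2.61 that rests on sKO library 1, and 0 were called. Their part in the cohesin values was not tested.

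Levels of different subunits were compared per kilobase of annotated exon, using GENCODE M21 gene models on GRCm38. In WT the order was Stag3 (69.4 ± 4.76 CPM per kb), Rad21 (67.8 ± 5.19), Smc1b (60.0 ± 9.94), Smc3 (36.4 ± 4.28), Rec8 (19.0 ± 2.51), Rad21l (15.6 ± 1.31), Smc1a (15.2 ± 1.93), Stag1 (14.4 ± 2.06) and Stag2 (9.62 ± 1.24), each with SD and n = 3. The WT libraries of Stag3, Rad21 and Smc1b overlapped as neighbours in that order, as did those of Rec8, Rad21l, Smc1a and Stag1. Smc3 lay apart from the genes on both sides, and so did Stag2 from Stag1. In sKO Rad21 came first at 77.8 ± 5.27 CPM per kb and Stag3 next at 55.5 ± 6.88 (SD, n = 3 each), with all 3 libraries of Rad21 above all 3 of Stag3. The Rad21l model of 1659 bases holds no UTR beyond the stop codon, so its level per kb may be too high.

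Per length, Stag3 made up 73.6%, 77.1% and 72.3% of the STAG transcripts in WT libraries and 69.1%, 69.2% and 70.7% in sKO libraries. All 3 sKO libraries were below WT, with a mean difference of -4.68 percentage points. Smc1b made up 79.6 ± 2.72% of the SMC1 transcripts in WT and 73.7 ± 4.57% in sKO (SD, n = 3 each), with overlap through sKO library 3. The 2 meiotic kleisins together made up 33.8 ± 2.77% of the kleisin transcripts in WT and 32.6 ± 1.44% in sKO (SD, n = 3 each). Meiotic forms were thus the larger share of the SMC1 and STAG transcripts, and RAD21 the larger share of the kleisins, in libraries of both groups. These shares are of whole testis and depend on the exon models. The Stag1 model has 11781 bases, 6590 of them UTR with the stop codon, against 5733 bases for Stag3. If shorter forms of Stag1 are made, the Stag3 share is too high.

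Reads of the paralogs are separable in principle. None of the 50-base words in the GENCODE transcripts of a member occurred in another member. Smc3 shared at most 0.783% of its 50-base words with any 1 processed pseudogene, and no member's exons overlapped another gene's except 28 bases of Stag2 with Gm37564 on the opposite strand.

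Promoters were examined for letters that the members share. RefSeq start regions (GRCm38.p6, 250 bases before to 50 after a start site) were on hand for 7 of the 9 members, not for Rad21 and Stag2. The table gives 1 start each, which is the outermost start of the gene for Smc1b, Smc3 and Smc1a only. E2F6 is a repressor known to keep Smc1b and Stag3 silent outside the germ line, and the core of its site, TCCCGC, was searched on both strands. It occurred in 6 of 7 members, in all but Rad21l, beside 6562 of the 32851 start regions in the table. The 7 regions except that of Rad21l (29.0% GC) had 58.3% to 73.7% GC, against a median of 52.7% over the table. The sites upstream of the start are shown with the core in capitals, read 5′ to 3′ on the gene's strand, for the meiotic members Smc1b and Rec8 and the mitotic members Smc3 and Stag1.
Smc1b (chr15:85131987-85132016, minus strand): aaaagaatttctTCCCGCgctttttttttt
Rec8 (chr14:55618116-55618145, plus strand): gtgtgcacctgaTCCCGCtggagggcgaca
Smc3 (chr19:53600268-53600297, plus strand): tctaagagggccGCGGGAgaggggcctttc
Stag1 (chr9:100643421-100643447, plus strand): aaaggccacgttTCCCGCgccgctgct

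The core was found in genes with lower, higher and near-zero estimates alike, and in Smc3 it reads as GCGGGA, its form on the other strand. In Stag3 the core begins at position -2 and runs across the start site. The E-box CACGTG, which is bound by MAX dimers and reads the same on both strands, occurred in 1 of the 7 regions, that of Stag3, and in 7.15% of the table. It begins at position -170 and is shown in capitals.
Stag3 (chr5:138280327-138280356, plus strand): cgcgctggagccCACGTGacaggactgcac

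The MYB core CAGTTG occurred in 1 of the 7, Smc1a, beside 13.7% of the table, and CNCCTCAG, the motif of STRA8 and MEIOSIN, occurred in 0 of the 7 beside 7.94% of the table. Both were searched on both strands. A match describes letters in this window and not a bound site.

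Regulators of cohesin were taken from 7 lists, grouped by role. Of 44 genes 42 were tested, and edgeR, DESeq2 and limma-voom each called 0. At an unadjusted p under 0.05 edgeR had 6 lower and 1 higher, beside 8.54% and 5.06% of all genes. The median log2 fold change was -0.051. The loader subunits Nipbl and Mau2 had log2 fold changes of -0.26 (edgeR adjusted p = 0.389) and 0.015 (edgeR adjusted p = 0.961). The release factors Wapl, Pds5a and Pds5b lay between -0.084 and -0.036. Of the 8 tested genes that set up cohesion during replication, the extremes were Ddx11, a helicase, at -0.12 and Hdac8, the deacetylase that recycles SMC3, at 0.29.

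The widest spread was among genes that protect cohesin at centromeres. Meikin, which with shugoshin guards REC8 at meiosis I, stood at 6.90, 3.83 and 2.80 CPM in WT and at 0.841, 1.27 and 2.97 CPM in sKO. sKO library 3 again lay inside the WT range, and the log2 fold change was -1.40 (SE 0.47, edgeR adjusted p = 0.211). Meikin was called without sKO library 3 (-2.12, edgeR adjusted p = 0.0236), in a fit that called 3.23% of all genes lower. It was also called without the filter on low counts (-1.40, edgeR adjusted p = 0.000187). That fit called 992 of 35085 genes lower, against 240 of 18860 in the main fit. The counts of Meikin ran from 14 to 123 in a library. Haspin, the kinase that brings Aurora B to centromeres, stood at 13.5, 14.8 and 11.6 CPM in WT and 9.25, 9.99 and 8.52 CPM in sKO, without overlap (log2 fold change -0.53, edgeR adjusted p = 0.160). Sgo2a, the shugoshin that meiotic cells need, had a log2 fold change of -0.46 (edgeR adjusted p = 0.346), and its mitotic relative Sgo1 one of 0.091 (edgeR adjusted p = 0.853); Sgo2a and Sgo1 were chosen after their values were seen.

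Among enzymes that cut or mark cohesin, the casein kinase Csnk1e had a log2 fold change of 0.29 (edgeR adjusted p = 0.256) and the separase gene Espl1 one of -0.19 (edgeR adjusted p = 0.437). The boundary factors Ctcf and Ctcfl, the second made in germ cells, had 0.031 and 0.18. Of 14 genes of the related condensin and SMC5/6 complexes 3 were lower at an unadjusted p under 0.05, beside 8.54% of all genes. Their median was -0.11. The condensin subunits Ncaph and Ncapd2 had log2 fold changes of -0.39 (edgeR adjusted p = 0.206) and -0.22 (edgeR adjusted p = 0.276).

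**Figure D5:**
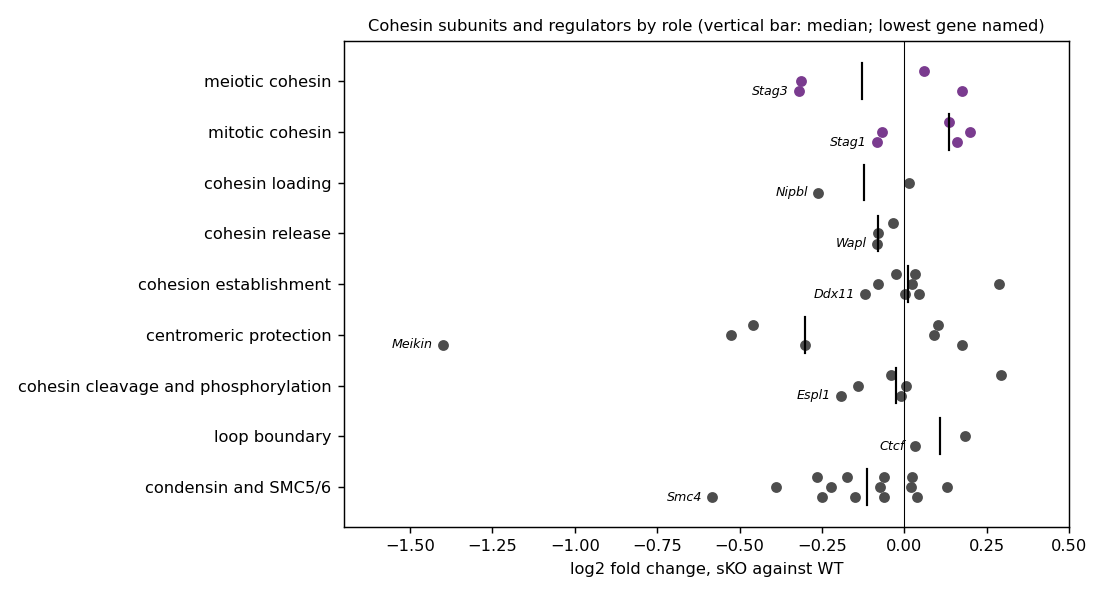
Log2 fold change, sKO against WT, of cohesin subunits (purple) and of the tested regulators and related complexes (grey), 1 point per gene, grouped by role, with the median of each group as a vertical bar. By estimate the meiotic subunits lie in 2 pairs, a difference that was not tested, and Meikin at -1.40 is the farthest from 0.

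The genes most like each meiotic subunit over the 6 libraries were found by the root mean square difference of log2 CPM, each gene centred on its own mean. The search covered 10750 tested genes that averaged 10 CPM or more. Symbols of Gm plus digits and those ending in Rik were left out. For Smc1b they were Kif20b (0.022), Ppp4r3b (0.022) and Phtf1 (0.028). For Stag3 they were Tmem129 (0.021), Cep85 (0.027) and the germ granule gene Tdrd7 (0.032). For Rec8 they included Srebf1 (0.021) and Patz1 (0.022), and for Rad21l C1galt1 (0.033), Per2 (0.057) and Scml1 (0.058). These likenesses are descriptions over 6 libraries.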

How the data were processed

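The authors deposited 1 table of raw counts, by gene symbol, for 6 testis libraries. Per the submitters' processing notes, Trim Galore, HISAT2 and featureCounts were used with build mm39. The sources used here do not give versions, annotation or strand setting. Columns named con and scKO were read as WT and sKO and matched by number. No library repeated another of its group: chi-square over degrees of freedom was 4.62 to 22.8 for such pairs.

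Counts were tested with edgeR 4.0.16 in R 4.3.3 (filterByExpr, TMM, robust quasi-likelihood F test, no covariates), with adjustment over 18860 genes and a threshold of 0.05. SE came from the F statistic. DESeq2 1.42.0 and limma-voom (limma 3.58.1) were alternatives, as were other scalings, no filter, a replicate block and leaving out libraries. Scripts were tested on simulated data. Ratios within a library used a pseudocount of 0.5. Counting limits cover counting error alone.

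The members and lists were chosen with earlier results of these data known. Genes named were Rif1, the members, the called or otherwise 2 lowest-p genes of each regulator list, up to 3 called genes of each marker list, and 3 likest genes per meiotic member (1 of these is not reported here); others are extremes or examples chosen after their values were seen. GENCODE and RefSeq tables are of GRCm38, so coordinates are theirs and not those of the counts.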

Additional observations from a re-analysis of the deposited data

How the results depend on the processing

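The count of called genes moved far more than the members did. edgeR called 246 genes in all, and DESeq2 called 767, limma-voom 15, edgeR without the filter on low counts 1146, with the replicate block 21, and without both libraries numbered 1 (a fit chosen after the data were seen) 160. Leaving out each library gave 0 to 655 (0 without WT library 2, sKO library 1 or sKO library 2, 103 without WT library 1, 513 without WT library 3 and 655 without sKO library 3). Over those fits 0 to 1 meiotic subunits were called, the 1 being Stag3 without sKO library 3, and 0 mitotic subunits. The labels do not say whether the numbers pair the samples. Same-numbered libraries had correlations of -0.33, 0.12 and -0.26 in their deviations from group means, and WT library 1 was closest to sKO library 3 (0.43). With 3 libraries a group these correlations cannot decide whether samples were paired. The block changed no call of a member, but under it edgeR no longer called Spo11 (adjusted p = 0.107), Acr (0.0604), Tekt1 (0.146) or Nme5 (0.146). No scaling changed the sign of a member. The Stag3, Smc1b and Rad21l ratios kept their direction in every alternative run, and Rec8 per Rad21 ran from -0.16 to 0.13 with each library left out.

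Signs turned for small estimates. With each library left out, the log2 fold change ran from -0.18 to 0.16 for Rad21l, from -0.17 to 0.012 for Smc3, from -0.20 to 0.021 for Stag1, from -0.035 to 0.054 for Mau2, from -0.070 to 0.11 for Ctcf, from -0.17 to 0.15 for C1galt1, from -0.11 to 0.26 for Per2 and from -0.12 to 0.24 for Scml1. Without both libraries numbered 1 Smc3 was 0.0071 and Stag1 0.032, and with RLE scaling Mau2 was -0.0020. Cep85 (-0.44) and Tdrd7 (-0.46) were called without sKO library 3. The cause was not tested. Among the regulators, Wapl ran from -0.17 to -0.020, Pds5b from -0.15 to -0.023, Ddx11 from -0.22 to -0.056 and Ctcfl from 0.084 to 0.27 with each library left out. Counting error was at most 5.14% for any count of a member, and the number of libraries, 3 a group, limits the precision.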
